A study of Bos taurus with 30 samples.

Results

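The genes AIF1, CD68, CSF1R and MPEG1, markers of macrophages, were followed in the skin of tick-infested cattle. All probe sets annotated to these 4 symbols were taken, which gave 4 probe sets, 1 for each gene, of 24016 that are not controls. All 4 passed the filter on low values, as did 13809 probe sets in all. Macrophages are phagocytes that live in the dermis or arise there from blood monocytes, and they take up debris, present antigen and release cytokines. CSF1R is the receptor tyrosine kinase for the growth factors CSF1 and IL34, on which macrophages depend for survival and differentiation. AIF1, also called Iba1, is a calcium-binding protein that bundles actin in activated macrophages, CD68 is a heavily glycosylated protein of the lysosomal membrane, and MPEG1, also called perforin-2, forms pores in engulfed microbes. Monocytes and dendritic cells can express these genes too.

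The animals were F2 cattle of a cross between Gyr (Bos indicus), a zebu breed, and Holstein (Bos taurus), a dairy breed, and every group carried this mixed background. Skin was biopsied before infestation at 0 h, and where the ticks fed at 24 h and 48 h. Each array measured the whole biopsy, with epidermis and dermis together. The 6 groups were resistant animals before infestation (0 h, n = 5 arrays), at 24 h (n = 6) and at 48 h (n = 5), and susceptible animals at 0 h (n = 3), at 24 h (n = 6) and at 48 h (n = 5). They came from 6 resistant and 7 susceptible animals, so most animals gave arrays at more than 1 time. The labels give neither the age of the animals nor how resistance was scored. Values are log2 signal on an Affymetrix bovine array, so a difference of 1 is a doubling. The test treats arrays as independent, although they repeat animals, and its precision rests on 3 to 6 arrays a group.

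Array medians lay between 7.16 and 7.40. Keratinocyte genes, which mark the epidermis, were among the highest signals, with KRT5 (keratin of the basal layer) at a mean of 13.84 in resistant and 14.41 in susceptible skin at 48 h. AIF1, CD68 and MPEG1 lay at or above the array median in 30 of 30 arrays and CSF1R in 26 of 30. The 48 h array of resistant animal 1 stood apart on the first principal component, at 65.6 against 38.3 for the next array, and marker differences that moved by over 1.5 times without it are also given without it. The resistant 0 h arrays numbered 3, 4 and 5 were most like the later arrays of animals 4, 5 and 6 over the 100 probe sets that differed most between animals (r = 0.94, 0.90 and 0.94, against -0.52, 0.45 and -0.52 for the animals of the same number). The other 5 arrays at 0 h were closest to the animal of their own number. The sex-linked transcript XIST was high in some animals and low in others. It was low in the resistant 0 h array numbered 3 and high in the later arrays of animal 3. In the resistant 0 h array numbered 5 it was high, and in the later arrays of animal 5 low. In the other 0 h arrays it was the same as in the later arrays of the same number. At 48 h XIST was high in resistant animals 1, 2, 3 and 6 and in susceptible animals 11 and 13. It was low in resistant animal 5 and in susceptible animals 7, 9 and 10, so the phenotypes were uneven in it.

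At 48 h all 4 markers were higher in resistant than in susceptible skin, by 1.70-fold to 2.67-fold, where 42.9% of all probe sets were higher, but 0 of 4 passed the test over all probe sets at an adjusted p of 0.05 (limma, Benjamini-Hochberg). Of the 13809 probe sets tested, 0.0145% passed it. At an unadjusted p under 0.05, 4 of 4 were higher, against 4.62% of all probe sets that were higher at that level. The median difference was 1.16 over the 4 markers and -0.04 over all probe sets. The markers were chosen with earlier results of these data known, so these counts are a description. Since the measurements are of bulk tissue, a difference in the number of cells of a type and one in RNA per cell cannot be told apart.

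CSF1R, the receptor, had 8.58, 8.74, 8.51, 8.71 and 8.57 in resistant animals 1, 2, 3, 5 and 6 at 48 h, against 8.22, 7.03, 4.49, 8.67 and 7.62 in susceptible animals 7, 9, 10, 11 and 13. The resistant arrays lay close together, the susceptible arrays were spread widely with animal 10 far below the rest, and animal 11 reached into the resistant range. The difference was 1.42 ± 0.47 (SE), or 2.67-fold with a 95% interval of 1.37-fold to 5.18-fold (adjusted p = 0.301, limma). Without susceptible animal 10 it was 0.74.

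AIF1 had 10.78, 10.57, 9.62, 9.90 and 9.51 in the same resistant animals at 48 h, against 9.17, 8.60, 8.30, 9.37 and 9.44 in the susceptible animals. The lowest resistant array lay just above the highest susceptible array, so the groups did not overlap, which held for 1 of the 4 markers and in the higher direction for 0.543% of all probe sets. The difference was 1.10 ± 0.24 (SE), or 2.14-fold with an interval of 1.52-fold to 3.02-fold. It ranked at position 11 of all probe sets by p (unadjusted p = 9.24e-05, adjusted p = 0.108, limma). Over the alternative settings the adjusted p ran between 0.0584 and 0.665, and with each array left out in turn between 0.0447 and 0.463. The lowest of these came without resistant animal 6 at 48 h, the lowest resistant array. There the difference was 1.24, and 9 of all probe sets passed. Without resistant animal 1 at 48 h the difference was 0.92.

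CD68 had 10.81, 9.63, 9.23, 8.60 and 8.79 in the resistant animals at 48 h, against 8.28, 7.70, 7.57, 9.12 and 8.25 in the susceptible animals. Resistant animal 1 was more than a log2 unit above the next array, and susceptible animal 11 lay above resistant animals 5 and 6. The difference was 1.23 ± 0.33 (SE), or 2.34-fold with an interval of 1.47-fold to 3.73-fold (adjusted p = 0.192, limma). Without resistant animal 1 it was 0.87.

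MPEG1 had 10.15, 9.54, 8.87, 8.45 and 9.19 in the resistant animals at 48 h, against 8.50, 7.91, 7.79, 9.15 and 9.04 in the susceptible animals. The groups overlapped more for this pore-forming protein than for AIF1, with resistant animal 5 below 3 susceptible arrays. The difference was 0.76 ± 0.35 (SE), or 1.70-fold with an interval of 1.03-fold to 2.79-fold (adjusted p = 0.479, limma). It was the smallest of the 4, and 0.53 without resistant animal 1.

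**Figure D1:**
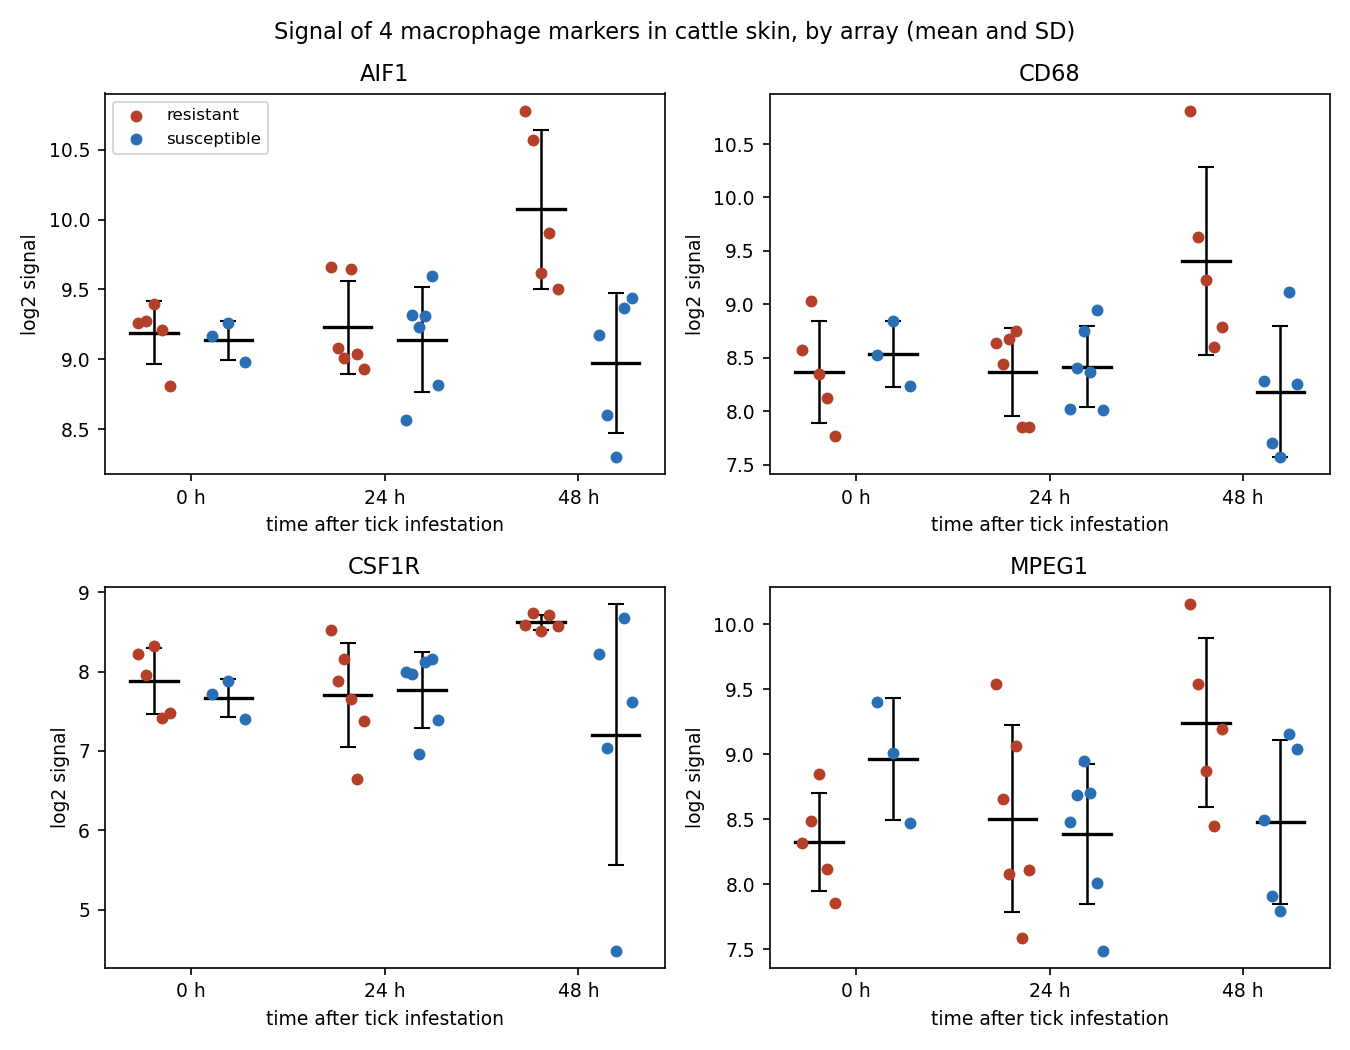
Log2 signal of AIF1, CD68, CSF1R and MPEG1 (1 panel each, with its own vertical range) in each of 30 arrays at 0, 24 and 48 h, resistant animals left of susceptible animals, with the group mean as a horizontal bar and the SD as a vertical bar. The groups lie over each other at 0 and 24 h, and at 48 h the resistant means are higher, for AIF1 10.08 ± 0.57 against 8.98 ± 0.50.

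Before infestation the 4 markers did not follow the pattern of 48 h. AIF1 had 9.26, 9.28, 9.39, 9.21 and 8.81 in resistant animals 1 to 5 at 0 h, against 9.16, 9.26 and 8.98 in susceptible animals 9, 10 and 11. CD68 had 8.57, 9.03, 8.35, 8.13 and 7.76, against 8.53, 8.85 and 8.23 in the susceptible animals. For both genes the resistant arrays lay above and below the susceptible ones. CSF1R had 8.22, 7.96, 8.32, 7.42 and 7.48 in the resistant animals, against 7.72, 7.88 and 7.41 in the susceptible animals. MPEG1 had 8.32, 8.49, 8.85, 8.12 and 7.85, against 9.40, 9.01 and 8.47. MPEG1 was thus lower in most resistant arrays, with resistant animals 2 and 3 above the lowest susceptible array.

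The differences at 0 h, resistant minus susceptible, were 0.06 ± 0.28 for AIF1, -0.17 ± 0.38 for CD68, 0.21 ± 0.54 for CSF1R and -0.64 ± 0.40 for MPEG1 (SE). None of the 4 passed the test (adjusted p = 1.0 for each, limma), nor did any probe set (0%). At an unadjusted p under 0.05 none of the 4 was among the 623 probe sets (4.51%) that differed at 0 h. The 95% intervals were wide: for CSF1R the ratio lay between 0.538 and 2.49, and for MPEG1 between 0.362 and 1.14. Without susceptible animal 9 the MPEG1 difference was -0.42.

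At 24 h the ranges of resistant and susceptible skin overlapped for all 4 markers. The lowest, median and highest AIF1 signals were 8.93, 9.06 and 9.66 in resistant skin, against 8.57, 9.27 and 9.60 in susceptible skin. For CD68 they were 7.85, 8.54 and 8.75 in resistant skin, against 8.01, 8.39 and 8.95 in susceptible skin. Each group's range held most of the other's. CSF1R signals at 24 h were 6.65, 7.77 and 8.52 in resistant skin, against 6.96, 7.98 and 8.16 in susceptible skin. MPEG1 signals were 7.59, 8.38 and 9.54 in resistant skin, against 7.49, 8.58 and 8.95 in susceptible skin. For these 2 genes the resistant arrays reached the highest values and the groups overlapped throughout.

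Resistant minus susceptible at 24 h was 0.09 ± 0.22 for AIF1, -0.05 ± 0.30 for CD68, -0.06 ± 0.43 for CSF1R and 0.12 ± 0.32 for MPEG1 (SE). The adjusted p lay between 0.992 and 0.996 (limma), and 0 of 4 passed the test, as did 0% of all probe sets. At an unadjusted p under 0.05 none of the 4 was among the 608 probe sets (4.4%) that differed. The 95% interval of the ratio was 0.777 to 1.45 for AIF1, 0.631 to 1.48 for CD68, 0.524 to 1.76 for CSF1R and 0.690 to 1.71 for MPEG1.

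Within resistant animals the 4 markers were higher at 48 h than before infestation, where 47.8% of all probe sets were higher. The differences were 0.74 ± 0.47 for CSF1R, 0.88 ± 0.24 for AIF1, 1.04 ± 0.33 for CD68 and 0.92 ± 0.35 for MPEG1 (SE), which is 1.67-fold, 1.85-fold, 2.06-fold and 1.89-fold. In the fit without the animal as a term 0 of 4 passed the test (adjusted p = 0.563, 0.274, 0.296 and 0.347 in the same order, limma), as did 0% of all probe sets. At an unadjusted p under 0.05, 3 of 4 were higher, against 4.95% of all probe sets, and CSF1R was not among them. CD68 stood at 0.69 without resistant animal 1 at 48 h and at 0.61 without the 0 h arrays numbered 3, 4 and 5. The arrays of the 2 times did not overlap for AIF1 and CSF1R (2 of 4, against 1.02% of all probe sets).

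With the animal as a fixed term AIF1 rose in resistant skin between 0 h and 48 h, by 1.03 ± 0.23 (SE, adjusted p = 0.0471, limma). With the 3 doubtful 0 h arrays given the animal numbers they resembled, the difference was again 1.03 and the adjusted p was 0.0415. CD68 stood at 1.18 ± 0.30 (SE, adjusted p = 0.0655, limma) with the animal as a fixed term, MPEG1 had an adjusted p of 0.159 and CSF1R of 0.425, and none of the 3 passed. With the animal as a random block AIF1 did not pass either (adjusted p = 0.120, limma). Under the fixed term 84 of all probe sets passed in this comparison, against 2 under the random block and 0 without the animal.

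Taken animal by animal, AIF1 was higher at 48 h than at 0 h by 1.52, 1.29, 0.22 and 1.09 in resistant animals 1, 2, 3 and 5. CD68 was higher by 2.24, 0.60, 0.88 and 0.83 in these animals. All 4 animals moved upwards in each of the 4 genes, with animal 3 the least for AIF1, CSF1R and MPEG1. CSF1R was higher by 0.37, 0.78, 0.19 and 1.22, and MPEG1 by 1.84, 1.05, 0.03 and 0.59. The pairs of animals 3 and 5 use 0 h arrays whose numbers are in doubt and whose XIST differed from the later arrays of the same number. The changes given for these animals may thus compare different animals. The share of all probe sets that were higher in every animal was not computed.

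The comparison of 48 h with 24 h uses none of the doubtful arrays. Again all 4 markers were higher in resistant skin at the later time, as were 46.1% of all probe sets. AIF1 was higher at 48 h by 0.85 ± 0.23, CD68 by 1.04 ± 0.31, CSF1R by 0.92 ± 0.45 and MPEG1 by 0.74 ± 0.34 (SE). The adjusted p lay between 0.334 and 0.517 (limma), so 0 of 4 passed, as did 0% of all probe sets. At an unadjusted p under 0.05, 3 of 4 were higher, against 4.77% of all probe sets, with CSF1R at 0.0501. Without resistant animal 1 at 48 h CD68 was at 0.69. This comparison and that of 48 h with 0 h share the 48 h arrays.

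Each of the 5 resistant animals measured at both times had a higher signal of each marker at 48 h than at 24 h. The share of all probe sets for which this held was not computed. The markers also vary together over the arrays, so their increases are not separate observations. The median increase within animals was 0.86 for AIF1, 0.93 for CD68, 0.86 for CSF1R and 0.86 for MPEG1. CSF1R varied most, with increases between 0.06 (animal 1, already at 8.52 at 24 h) and 2.06 (animal 5, at 6.65 at 24 h). Its 48 h values, by contrast, had the smallest SD of any group, 0.10 (n = 5).

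Between 0 h and 24 h the markers in resistant skin differed by 0.04 ± 0.23 for AIF1, 0.0011 ± 0.31 for CD68, -0.17 ± 0.45 for CSF1R and 0.18 ± 0.34 for MPEG1 (SE, 24 h minus 0 h). None of the 4 passed the test (adjusted p = 1.0 for each, limma), as did 0% of all probe sets, and none was among the 652 probe sets (4.72%) at an unadjusted p under 0.05. Animals moved both ways: MPEG1 was higher at 24 h by 1.22 and 0.94 in animals 1 and 4 and differed by -0.77 in animal 3. The 0 h arrays numbered 3 and 4 are among those in doubt.

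**Figure D2:**
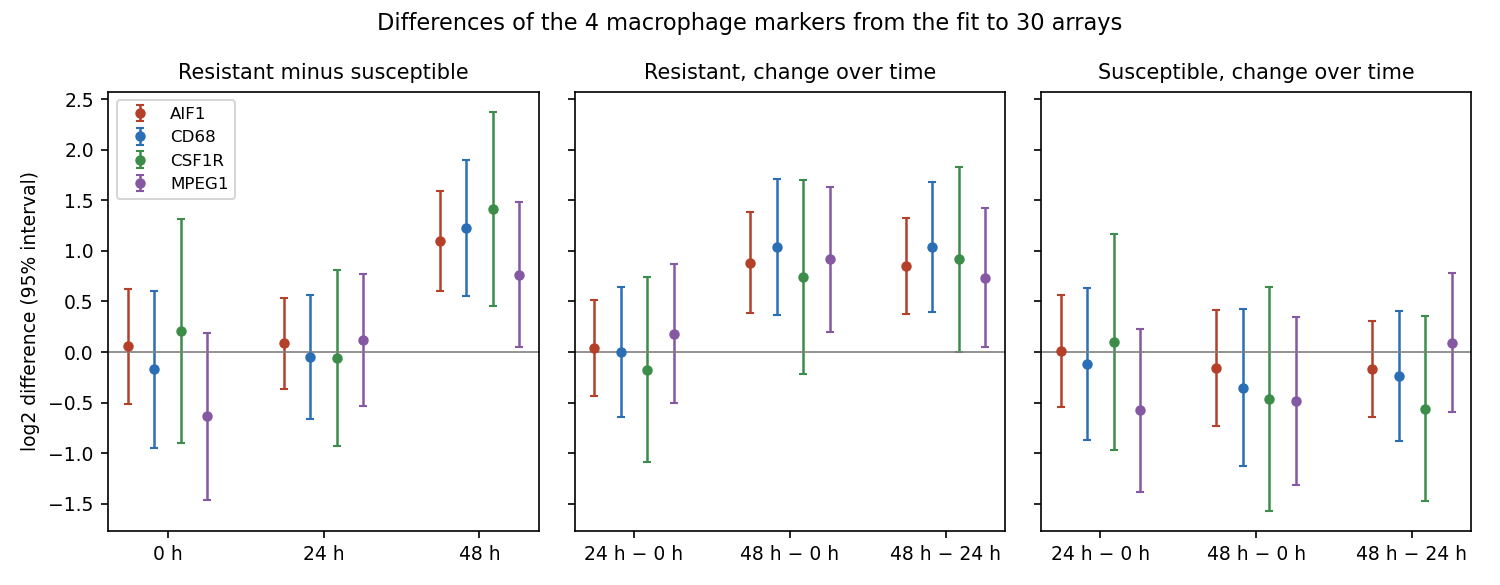
Log2 differences of the 4 markers with 95% intervals from the limma fit to 30 arrays, for resistant minus susceptible at 3 times (left), and for pairs of times in resistant (centre) and susceptible skin (right). The intervals of all 4 markers lie above 0 in the phenotype comparison at 48 h, and in susceptible skin every interval includes 0.

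In susceptible skin no marker was measurably higher at 48 h. The differences between 48 h and 0 h were -0.16 ± 0.28 for AIF1, -0.35 ± 0.38 for CD68, -0.46 ± 0.54 for CSF1R and -0.48 ± 0.40 for MPEG1 (SE). Those between 48 h and 24 h were -0.17 ± 0.23, -0.23 ± 0.31, -0.56 ± 0.45 and 0.09 ± 0.34 in the same order. Those between 24 h and 0 h were 0.0059 ± 0.27, -0.12 ± 0.37, 0.10 ± 0.52 and -0.58 ± 0.39. In each of these 3 comparisons 0 of 4 passed the test (adjusted p = 1.0 for each, limma), as did 0% of all probe sets, and 0 of 4 had an unadjusted p under 0.05, against 0.949%, 1.88% and 2.3% of all probe sets in the order given.

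Susceptible animals differed in direction. At 48 h against 0 h, susceptible animals 9 and 10 had lower signals of all 4 markers, and animal 11 had higher ones. For CSF1R the changes were -0.68, -3.40 and 1.26 in animals 9, 10 and 11, and for CD68 they were -0.83, -1.27 and 0.89. Against 24 h, animals 9 and 10 were lower and animals 11 and 13 higher in all 4 genes, as for AIF1 with -0.72, -0.93, 0.05 and 0.62 in animals 9, 10, 11 and 13. Up to 48 h the 4 markers thus moved in the same direction within each of these animals, and the animals did not move together. Between 0 h and 24 h the markers did not always do so. Animal 9 then differed by 0.16 for AIF1, -0.12 for CD68, 0.26 for CSF1R and -0.72 for MPEG1.

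**Figure D3:**
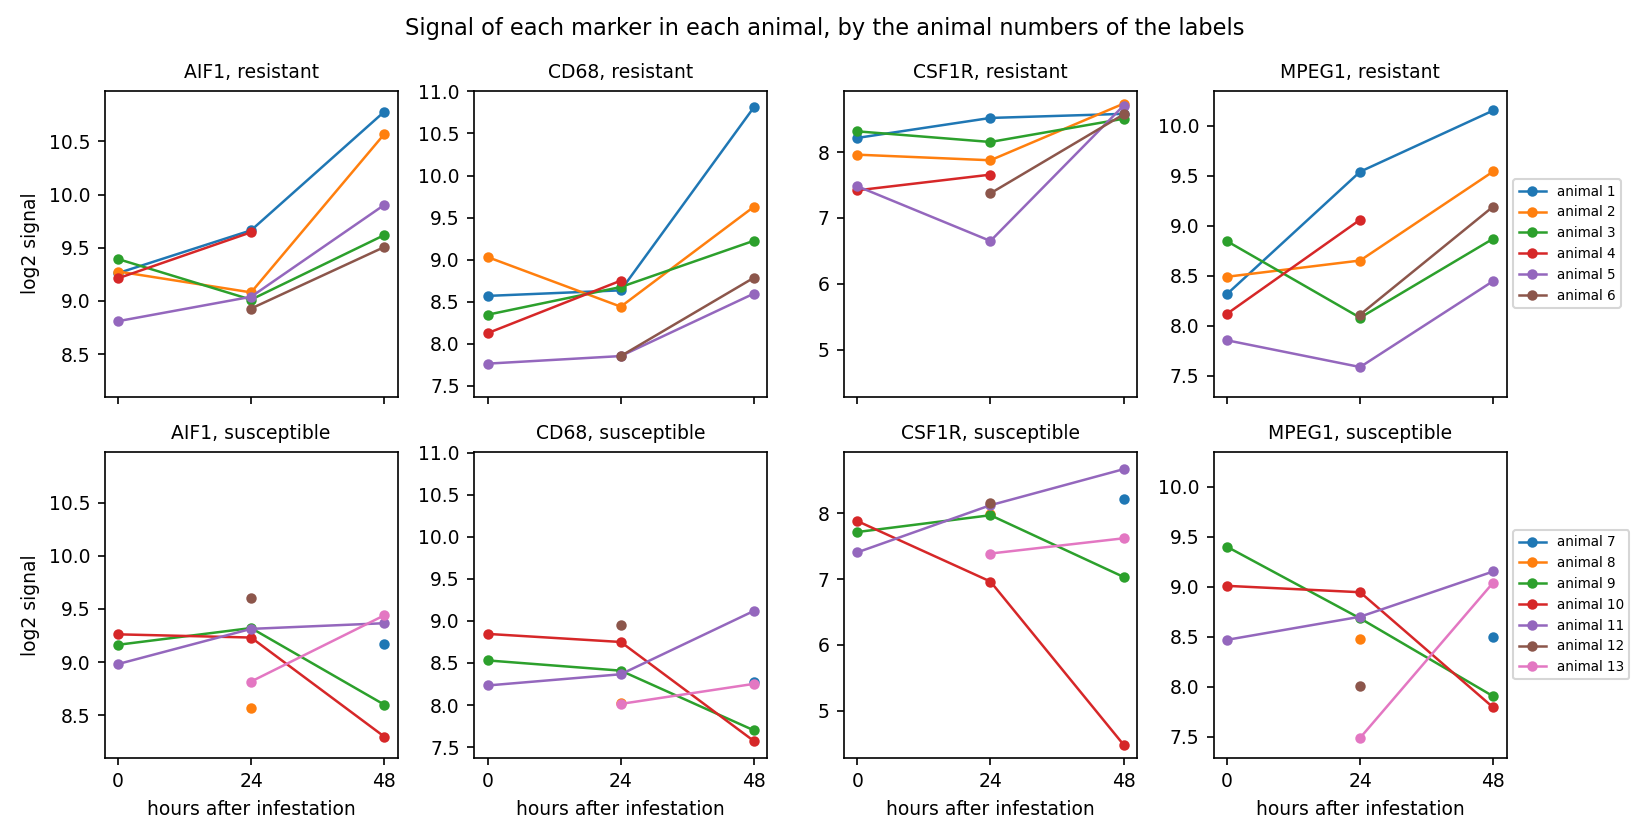
Log2 signal of each marker against hours after infestation, with 1 line for each animal by the numbers of the labels, resistant animals above and susceptible animals below; points without a line are animals with 1 array. Every resistant line climbs between 24 and 48 h, and in susceptible skin the lines of animals 9 and 10 descend while those of animals 11 and 13 climb.

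Whether the response differed between the phenotypes was tested in the same fit. The difference of the 48 h responses relative to 0 h, resistant minus susceptible, was 1.04 ± 0.37 for AIF1, 1.39 ± 0.50 for CD68, 1.21 ± 0.71 for CSF1R and 1.40 ± 0.54 for MPEG1 (SE). The adjusted p was 1.0 for each (limma), so 0 of 4 passed, as did 0% of all probe sets. The unadjusted p was 0.00847, 0.00959, 0.102 and 0.0142 in the same order, which puts 3 of 4 under 0.05 in the higher direction, against 1.75% of all probe sets. Without susceptible animal 10 at 48 h the CSF1R value was 0.52.

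Relative to 24 h the difference of responses was 1.01 ± 0.33 for AIF1, 1.27 ± 0.44 for CD68, 1.48 ± 0.63 for CSF1R and 0.64 ± 0.47 for MPEG1 (SE). The adjusted p lay between 0.921 and 0.924 (limma), 0 of 4 passed, as did 0% of all probe sets, and 3 of 4 had an unadjusted p under 0.05, against 2.35% of all probe sets higher at that level. Without susceptible animal 10 at 48 h the CSF1R value was 0.80, and without resistant animal 1 at 48 h the MPEG1 value was 0.41. With a term for the keratinocyte genes described further on, the values were 0.46 for AIF1, 0.52 for CD68, 0.93 for CSF1R and 0.093 for MPEG1. For the responses at 24 h relative to 0 h the difference was 0.03 ± 0.36 for AIF1, 0.12 ± 0.48 for CD68, -0.27 ± 0.69 for CSF1R and 0.76 ± 0.52 for MPEG1 (SE, adjusted p = 1.0 for each, limma). There 0 of 4 passed, as did 0% of all probe sets, and 0 of 4 had an unadjusted p under 0.05, against 1.85%.

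Ordered by group mean, resistant skin at 48 h was highest for each of the 4 markers. AIF1 ran 10.08 ± 0.57 in resistant skin at 48 h, then 9.23 ± 0.33 at 24 h and 9.19 ± 0.22 at 0 h in resistant skin, then 9.14 ± 0.38 at 24 h, 9.14 ± 0.14 at 0 h and 8.98 ± 0.50 at 48 h in susceptible skin (SD). Only the first step of this order, 0.85, was larger than the larger SD of its pair. For CSF1R too the first step, 0.74 down to 7.88 ± 0.41 in resistant skin at 0 h, was the single step larger than the SD (0.41), and susceptible skin at 48 h was last at 7.21 ± 1.64. CD68 did not reach this, with 9.41 ± 0.88 in resistant skin at 48 h and 8.54 ± 0.31 in susceptible skin at 0 h next in order, a step of 0.87. For MPEG1 the groups next to each other lay closer, with 9.24 ± 0.65 in resistant skin at 48 h, 8.96 ± 0.47 in susceptible skin at 0 h next, and resistant skin at 0 h last at 8.32 ± 0.37.

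The 4 markers varied together over the 30 arrays, which share the labelling and scaling of each array and repeat animals. Pearson's r was 0.87 between AIF1 and CD68, 0.75 between CD68 and MPEG1, 0.73 between AIF1 and MPEG1, and 0.66, 0.61 and 0.55 between CSF1R and AIF1, CD68 and MPEG1. After the 6 group means were taken out, r was 0.79 between AIF1 and CD68, and 0.47 to 0.71 for the other pairs. Group membership held 50.2% of the variance of AIF1, 40.0% of CD68, 26.2% of CSF1R and 28% of MPEG1, against a median of 17.1% over all probe sets kept. Of what remained, 41.6% to 56.2% lay between animals, against a median of 51.2%. With 30 arrays from 13 animals a large share falls there even where animals do not differ, and some 0 h numbers are in doubt.

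Other genes of monocytes and macrophages were taken from a list of 36, of which 24 were measured. At 48 h 23 of the 24 were higher in resistant skin and 0 passed the test (against 42.9% higher and 0.0145% past the test of all probe sets). At an unadjusted p under 0.05, 17 were higher, against 4.62% of all probe sets, and the median was 1.05, against -0.04. This list and the later ones were chosen with earlier results of these data known. Their genes were read from the same arrays as the markers, so the counts are not independent support. The complement C1q chains, which macrophages secrete, had differences of 1.67 ± 0.35 for C1QC (adjusted p = 0.0787), 1.81 ± 0.42 for C1QA and 1.76 ± 0.45 for C1QB (SE). FCGR1A, the high-affinity receptor for IgG, had 1.32 ± 0.32, and VSIG4, a complement receptor of resident macrophages, 1.36 ± 0.37. FCGR2B, the inhibitory IgG receptor, was the exception at -0.01 ± 0.32. In the list's median the phenotypes differed by 0.08 at 0 h and 0.06 at 24 h, and in susceptible skin 48 h minus 0 h was -0.22.

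**Figure D4:**
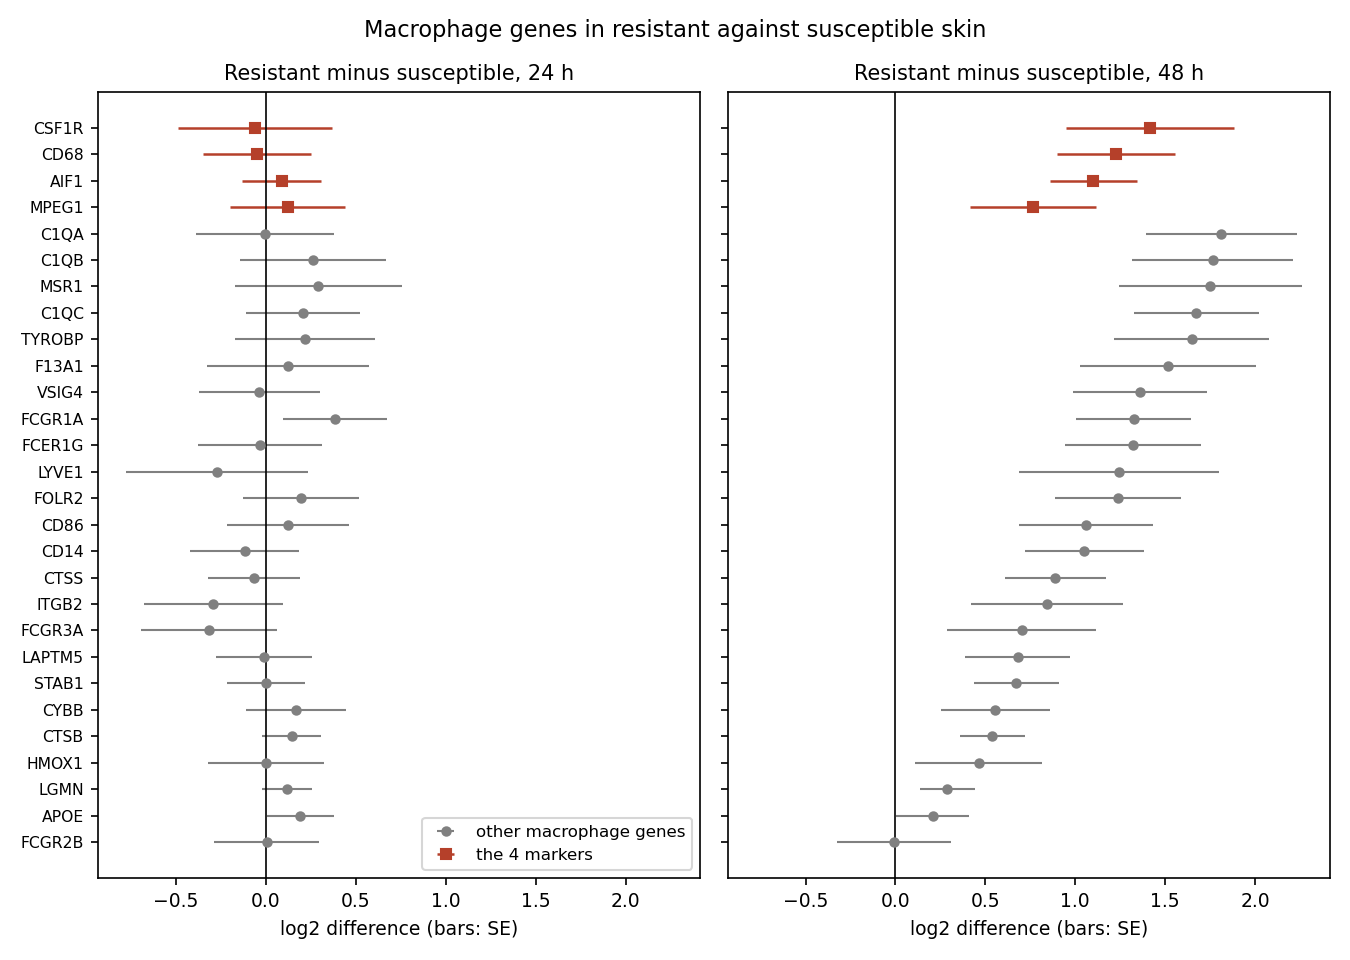
Log2 differences, resistant minus susceptible skin, of the 4 markers (squares) and of the 24 other measured macrophage genes (circles) at 24 h (left) and 48 h (right), with bars for the SE. At 24 h the values lie on both sides of 0, and at 48 h all but FCGR2B lie above it.

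The CSF1R pathway, from its ligands to the kinases and transcription factors behind it, had 12 of 24 listed genes measured. At 48 h 9 of the 12 were higher in resistant skin, against 42.9% of all probe sets, 0 passed, and the median was 0.26. TYROBP, the membrane adaptor that pairs with myeloid receptors and is also in the macrophage list, had 1.65 ± 0.43, from means of 9.55 in resistant and 7.91 in susceptible skin (SE, adjusted p = 0.192, limma). INPP5D, a lipid phosphatase that restrains the pathway, had 0.61 ± 0.23, and IRF8, a transcription factor of the monocyte lineage, 0.55 ± 0.32. The ligand CSF1 had 0.39 ± 0.25, with means of 9.71 in resistant and 9.32 in susceptible skin. The other ligand, IL34, lay below the filter, and the 3 measured genes with lower values were CEBPB at -0.25, GRB2 at -0.16 and MAPK3 at -0.10. STAT3, AKT1 and SHC1, which like GRB2 and MAPK3 act behind many receptors, had 0.13, 0.03 and 0.03.

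Of 21 genes for monocyte recruitment 10 were measured, and 7 were higher in resistant skin at 48 h, against 42.9% of all probe sets, with 0 passing and a median of 0.17. ITGB2, the common chain of the leukocyte integrins, had 0.84 ± 0.42 and is also in the macrophage list. The chemokines CCL3 and CCL8 had -0.68 ± 0.34 and -0.41 ± 0.26 (SE). CCL2, the main chemokine for monocytes, had 0.30 ± 0.66. It was named after its value was seen.

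The lysosome, where CD68 resides, was followed through 18 of 22 listed genes. At 48 h 16 of the 18 were higher in resistant skin and 0 passed, against 42.9% and 0.0145% of all probe sets. The median was 0.34, and 6 were higher at an unadjusted p under 0.05, against 4.62%. The proteases CTSL, CTSS, CTSC and CTSB had 1.62 ± 0.59, 0.89 ± 0.28, 0.58 ± 0.24 and 0.54 ± 0.18, the membrane protein CD63 had 0.41 ± 0.15, and progranulin (GRN) had 0.34 ± 0.14 (SE). LAMP1 and LAMP2, structural relatives of CD68 found on lysosomes of all cells, had 0.02 ± 0.10 and 0.0054 ± 0.11. CTSS and CTSB also stand in the macrophage list.

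Genes with patterns most like the mean of the 4 markers over the 30 arrays were sought among 8595 other probe sets with 1 symbol, whose median r was -0.05 and of which 0.500% exceeded 0.8. RNASE6, a ribonuclease of monocytes, had r = 0.95, MSR1, a scavenger receptor, and CTSS had 0.90, GMFG and FCGR1A had 0.89, TYROBP and ALOX5AP 0.88, and C1QB 0.87. After the group means were taken out RNASE6 was again first at 0.94, followed by LCP2 at 0.89. The nearest genes differed between markers. For AIF1 they were RNASE6 (0.90), TYROBP (0.88) and LOC504773 (0.86), and for CD68 TYROBP (0.88), RNASE6 (0.87) and GMFG (0.85). After the group means were taken out none of these genes was among the nearest 3 of either marker, which were NRN1 (0.89), GLIPR2 (0.84) and MILR1 (0.83) for AIF1, and CYP4V2 (0.85), SNX9 (0.83) and ADAM19 (0.81) for CD68. CYP4V2 and SNX9 differed by -0.12 and -0.07 between the phenotypes at 48 h.

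For CSF1R the nearest were FBLN1 (0.88), an extracellular matrix protein of fibroblasts, C1QA (0.85) and VAV1 (0.84). For MPEG1 they were BOLA-DRA (0.91) and BOLA-DRB3 (0.88), chains of the class II molecule that presents antigen, with LCP2 (0.88) between them. After the group means were taken out FBLN1 was again first for CSF1R (0.87), and LCP2 (0.89) for MPEG1. CSF1R had a single very low value, 4.49 in susceptible animal 10 at 48 h, and r without that array was not computed. Without it the difference between the phenotypes at 48 h fell from 0.57 to 0.22 for FBLN1. It fell from 1.87 to 0.95 for VAV1 and from 1.81 to 1.38 for C1QA. BOLA-DRA differed by 0.68 ± 0.29 between the phenotypes at 48 h and RNASE6 by 1.59 ± 0.40, neither past the test (adjusted p = 0.439 and 0.192, limma). These values of r carry no test, since all genes were read from the same 30 arrays.

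Markers of other cell types were compared at 48 h, and 0 measured genes of any such list passed the test. The median difference was -0.01 over 8 of 10 T cell genes, 0.28 over 5 of 11 neutrophil genes, -0.22 over 2 of 7 B and plasma cell genes, and -0.26 over 3 of 13 genes of dendritic and Langerhans cells. These 3 went both ways, with CD1B, a lipid-presenting molecule of dendritic cells, at 0.83 ± 0.85, FSCN1 at -0.26 ± 0.12 and EPCAM at -0.56 ± 0.34 (SE). It was 0.10 over 6 of 8 endothelial genes and 0.34 over 8 of 8 fibroblast genes. Of 7 mast cell genes 3 were measured, with a median of 1.57, from TPSB2 and FCER1A at 2.08 ± 0.65 and 1.57 ± 0.57 and KIT at 0.16 ± 0.42 (SE). Melanocyte genes, which follow coat colour, had a median of -2.10 over 4 of 6. In resistant skin 5 of 5 neutrophil, 7 of 8 fibroblast and 3 of 3 mast cell genes were higher. So were 4 of 8 T cell, 3 of 6 endothelial and 1 of 3 dendritic cell genes. The counts were 1 of 2 for B and plasma cells and 0 of 4 for melanocytes. Of all probe sets 42.9% were higher. At an unadjusted p under 0.05 (limma), 2 mast cell genes and 1 fibroblast gene were higher, against 4.62% of all probe sets.

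Genes of other cell types also differed between times within resistant skin, again with 0 measured genes past the test. Of the 6 endothelial genes 5 were higher at 48 h than at 0 h (median 0.46) and 6 higher than at 24 h (median 0.50), and 3 of them (CLDN5, ENG and PECAM1) had an unadjusted p under 0.05 in each comparison, against 4.95% and 4.77% of all probe sets. All 8 fibroblast genes were higher in both comparisons, with medians of 0.18 and 0.31, as were all 8 T cell genes, with 0.16 and 0.27. Of all probe sets 47.8% were higher at 48 h than at 0 h and 46.1% than at 24 h. No T cell gene had an unadjusted p under 0.05 in either comparison. Of the fibroblast genes 0 had it against 0 h and 2 against 24 h. CD1B was higher at 48 h by 1.81 ± 0.85 than at 0 h and by 2.02 ± 0.81 than at 24 h (SE, adjusted p = 0.436 and 0.458, limma). Of the 4 genes of differentiated keratinocytes 3 were lower at 48 h than at 0 h at an unadjusted p under 0.05, against 6.08% of all probe sets lower at that level. Their part in the marker values was not tested.

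Keratinocyte genes ran the other way from the macrophage markers at 48 h. All 6 measured of 8 basal genes and all 4 measured of 8 genes of differentiated keratinocytes were lower in resistant skin there. Their medians were -0.63 and -0.59, with 0 past the test, where 42.9% of all probe sets were higher. COL17A1, which anchors basal cells, had -0.92 ± 0.42, and DSG1, a desmosomal cadherin of the upper layers, -0.71 ± 0.24 (SE). At 24 h, by contrast, 5 of the 6 basal genes were higher in resistant skin (median 0.57), against 49.6% of all probe sets. Of these 2 had an unadjusted p under 0.05, against 2.07% of all probe sets higher at that level. Of the 4 differentiated genes 2 were higher at 24 h (median -0.15). The summed linear signal of the basal genes ran between 7095 and 53184 in resistant skin at 48 h (median 38963), against 23811 to 65837 in susceptible skin (median 47787). The sum of the differentiated genes ran between 6132 and 16655 (median 12660), against 11430 to 41197 (median 15764). For the 4 macrophage markers the sum ran between 2111 and 5075 in resistant skin (median 2217), against 750 to 2193 in susceptible skin (median 1546).

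Over the 30 arrays the mean z-score of the 4 markers had r = -0.75 with that of the 10 keratinocyte genes, as a description of arrays that share animals and scaling. The ends of this relation were resistant animal 1 at 48 h, with 2.44 for the markers and -2.67 for the keratinocyte genes, and susceptible animal 10 at 48 h, with -2.18 and 1.39. Without these 2 arrays r was -0.51 (n = 28). With a term for the keratinocyte genes, chosen after the data were seen, the differences between phenotypes at 48 h were 0.69 ± 0.16 for AIF1, 0.66 ± 0.22 for CD68, 1.01 ± 0.47 for CSF1R and 0.35 ± 0.32 for MPEG1 (SE, adjusted p = 0.217, 0.314, 0.452 and 0.743, limma). Within resistant skin that term gave 0.58 for AIF1, 0.62 for CD68, 0.44 for CSF1R and 0.61 for MPEG1 at 48 h minus 0 h, and 0.50, 0.56, 0.57 and 0.39 in the same order at 48 h minus 24 h. The keratinocyte genes were themselves lower in resistant skin at 48 h, so in bulk signal this term cannot separate the epidermis from the markers. The part of the epidermis in the marker values was not tested.

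Under that term 3 of 4 markers and 14 of the 24 other macrophage genes had an unadjusted p under 0.05 in the higher direction at 48 h, against 5.04% of all probe sets. Without resistant animal 1 the counts were 3 of 4 and 15 of 24, against 4.24%. Without susceptible animal 10 they were 3 of 4 and 14 of 24, against 2.93%. The median difference of the 4 markers was 0.68, 0.90 and 0.83 in these 3 settings.

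**Figure D5:**
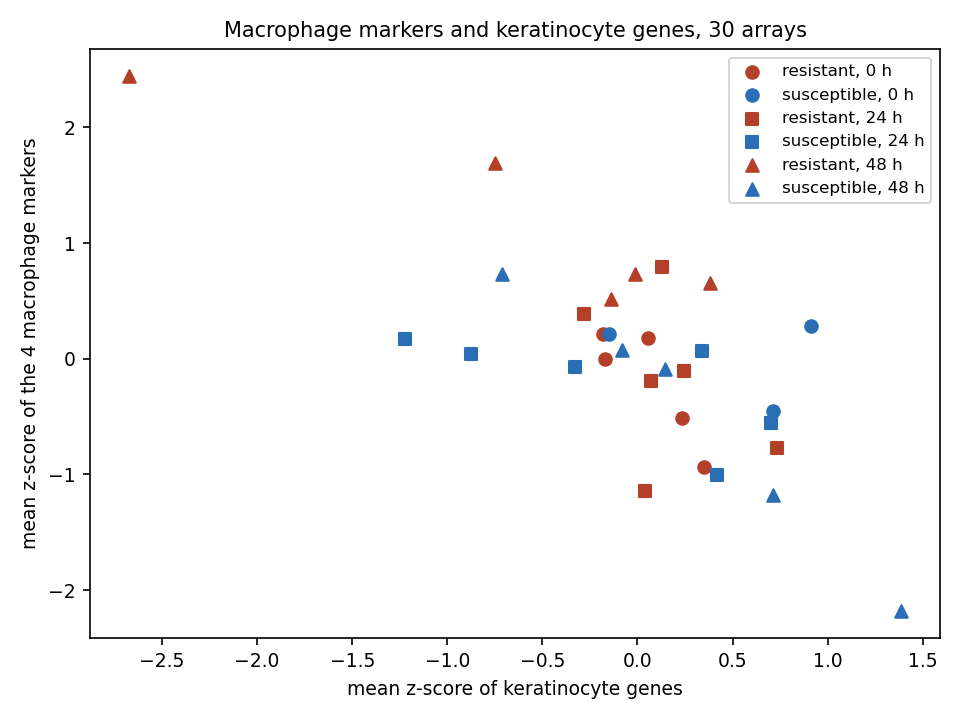
Mean z-score of the 4 macrophage markers (vertical) against the mean z-score of 10 keratinocyte genes (horizontal) in 30 arrays, coloured by phenotype and shaped by time. Resistant animal 1 at 48 h lies at the upper left (2.44 and -2.67), susceptible animal 10 at 48 h at the lower right (-2.18 and 1.39), and the other 28 arrays lie between.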

How the data were processed

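From each of 30 skin biopsies 50 ng of total RNA was labelled by a 3' IVT method and hybridised to an Affymetrix bovine array, per the labels' protocols. The authors' deposited log2 signals came from MAS5 according to the submitters' processing notes, which name no version. On the linear scale every array had a 2% trimmed mean of 500, so the arrays share 1 scaling, and no further normalization was applied. The analysis set aside 112 controls among 24128 probe sets and kept 13809 of the remaining 24016, those that reached the median of their array on 3 arrays or more. Symbols came from the platform annotation, in which 13292 probe sets had 1 symbol, 86 several and 10638 none. A listed gene was read by its kept probe set of highest mean. No sequence or coordinate is printed, since no build is named.

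Means of the 6 groups were fitted to the 30 arrays jointly (limma 3.58.1, R 4.3.3, lmFit and eBayes, intensity trend on). The tests of the 12 comparisons were two-sided, and Benjamini-Hochberg adjustment ran over all 13809 probe sets with a threshold of 0.05. Titles name the animal of each array, which pairs the times. The random block had a consensus correlation of 0.143, and 3 of the 8 arrays at 0 h were closest to an animal of another number. Alternatives were the animal as a random block or a fixed term, 2 normalizations, no filter, an offset of 16 on the linear signal, no trend, array weights, a term for XIST, subsets of arrays, and each array left out in turn. A term for keratinocyte genes was added after the data were seen.

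The members and lists were chosen with earlier results of these data known. The text names the 4 markers, the 8 genes most like their mean, the 3 most like each, and 3 to 6 genes of smallest p at 48 h from each of 4 lists. Genes of the other lists, and others given for contrast, were chosen after their values were seen. In simulated data for the phenotypes at 48 h the fit recovered 64 of 100 true changes of 1 log2 unit. Of changes of 2 log2 units it recovered 95 of 100, with 4 false calls among the unchanged probe sets. Each value was drawn independently from a normal distribution with its probe set's SD, without repeated animals or correlated genes. The changed probe sets were picked at random, so these rates need not hold for the 4 markers. Python 3.11.15 with matplotlib 3.10.9 drew the figures.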

Additional observations from a re-analysis of the deposited data

How the results depend on the processing

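The differences between phenotypes at 48 h stayed positive for all 4 markers under 11 alternatives and with each of 30 arrays left out. No marker passed the test there under those 11 alternatives. The number of markers past the test ran between 0 and 1 with arrays left out, and was 1 (AIF1) without resistant animal 6 at 48 h. With arrays left out the difference ran between 0.92 and 1.24 for AIF1, 0.87 and 1.46 for CD68, 0.74 and 1.78 for CSF1R, and 0.53 and 0.96 for MPEG1. For resistant skin at 48 h against 0 h the number past the test was 1 with the animal as a fixed term (replicate block), both with the labels' numbers and with 3 numbers moved, against 0 without it and 0 with the animal as a random block. The block changed no other call of a marker. Over all probe sets the phenotypes at 48 h gave 2 calls, against 10 with arrays centred on their median, 4 with no filter, 1 with the XIST term, and 0 with array weights, with the arrays of the 2 groups alone, with the keratinocyte term, and without resistant 0 h arrays 3, 4 and 5. With arrays left out this count ran between 0 and 14. It was 14 without susceptible animal 11, 9 without resistant animal 6, 3 without susceptible animal 13, 4 without resistant animal 4 at 24 h, 1 without susceptible animals 7 or 9, and 0 without resistant animals 1, 2, 3 or 5 or susceptible animal 10 (at 48 h except where stated). Resistant 48 h against 0 h gave 0 calls, against 84 and 108 under the fixed term (labels' numbers and 3 moved) and 2 under the random block. Resistant 48 h against 24 h gave 0, against 16 under the fixed term with 3 numbers moved. Without resistant 0 h arrays 3, 4 and 5 the phenotypes at 0 h and resistant 24 h against 0 h gave 4 calls each, resistant 48 h against 0 h gave 2 and the difference between phenotypes in that response gave 1, against 0 each with them.

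Small differences changed sign, none past the test. Centring on the array median gave -0.014 for CD68 in resistant skin at 24 h minus 0 h and -0.018 for AIF1 in the difference of 24 h responses. The fixed term gave -0.13 for CSF1R in susceptible skin at 24 h minus 0 h, also with 3 numbers moved, where CD68 in resistant skin at 24 h minus 0 h was -0.0076. With the XIST term that CD68 difference was -0.0094. Array weights gave 0.020 for CD68 and 0.092 for CSF1R between phenotypes at 24 h, and -0.041 for CCL2 at 48 h. Without resistant 0 h arrays 3, 4 and 5, CD68 stood at 0.26 between phenotypes at 0 h, at -0.43 for resistant 24 h minus 0 h and at -0.31 for the difference of 24 h responses, and AIF1 at -0.041 for resistant 24 h minus 0 h and at -0.047 for the difference of 24 h responses. The keratinocyte term gave -0.14 for AIF1 between phenotypes at 0 h, 0.14 for CD68 and 0.078 for CSF1R at 24 h, and -0.033 for CCL2 and -0.067 for LCP2 at 48 h. For times in susceptible skin it gave -0.28 for AIF1 and -0.19 for CSF1R at 24 h minus 0 h, and 0.034 for AIF1 and 0.039 for CD68 at 48 h minus 24 h. For the difference of 24 h responses it gave 0.057 for CSF1R. The cause was not tested.

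With arrays left out, AIF1 ran between -0.021 and 0.15 at 0 h and -0.028 and 0.18 at 24 h between phenotypes, and -0.058 and 0.097 for resistant 24 h minus 0 h. In susceptible skin AIF1 ran between -0.086 and 0.12 for 24 h minus 0 h, -0.28 and 0.0089 for 48 h minus 0 h, and -0.28 and 0.0030 for 48 h minus 24 h, and its difference of 24 h responses between -0.083 and 0.12. CD68 ran between -0.13 and 0.057 at 24 h between phenotypes, -0.15 and 0.17 for resistant and -0.27 and 0.037 for susceptible 24 h minus 0 h, and -0.036 and 0.28 for the difference of 24 h responses. CSF1R ran between -0.22 and 0.15 at 24 h between phenotypes, -0.34 and 0.038 for resistant and -0.034 and 0.26 for susceptible 24 h minus 0 h. In susceptible skin CSF1R ran between -0.83 and 0.22 for 48 h minus 0 h and -0.93 and 0.12 for 48 h minus 24 h, with both upper ends without animal 10. MPEG1 ran between -0.087 and 0.30 at 24 h between phenotypes, -0.027 and 0.36 for resistant 24 h minus 0 h, and -0.085 and 0.26 for susceptible 48 h minus 24 h.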
